A study of Mus musculus with 11 samples.

Results

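Synpo2, Fam13a, Olfml2b, Apol7a, Cdc42ep3, Cyp4v3, Nptxr and Omp are 8 genes whose transcripts were much less abundant in 266-6 cells after treatment with epidermal growth factor (EGF). They were picked on these same libraries for the size of that fall, so the fall itself is described here and not tested. The 8 genes stand among 23284 gene symbols listed in the count tables and among 13343 genes with enough reads to be tested, and all 8 passed that filter. Their known roles are various, from the cytoskeleton and lipid metabolism to proteins named after neurons.

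The data are RNA sequencing of 266-6, an established mouse pancreatic acinar cell line, in 11 libraries that fall into 4 groups. Control siRNA with vehicle (siCtrl) has 2 libraries. Control siRNA with EGF (siCtrl_EGF), Arid1a siRNAs with vehicle (siArid1a) and Arid1a siRNAs with EGF (siArid1a_EGF) have 3 each. The control was a non-targeting siRNA, the siRNAs against Arid1a were used at 25 nM, and transfection lasted 48 h. All cells were kept overnight without serum and then received EGF at 40 ng/ml or its vehicle, 0.1% BSA, for 8 h. The cells are 1 line, the knockdown is transient and partial, and the labels do not say that replicates were separate cultures, so p-values measure the spread between these libraries, which may be technical.

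EGF binds the receptor EGFR on the cell surface and switches on the RAS to ERK cascade and the PI3K to AKT pathway. The first leads within hours to transcription of feedback genes such as the phosphatase gene Dusp6. The second leads to export of FOXO transcription factors from the nucleus, so that FOXO target genes are transcribed less. In the exocrine pancreas, EGFR signalling is known for its part in the change of acinar cells to duct-like cells. Arid1a encodes a subunit of the SWI/SNF chromatin remodelling complex, which opens DNA at promoters and enhancers.

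Counted reads per library ranged from 10279763 to 19773007, and the 8 genes had between 23 and 1504 reads each in a library. Levels are given in CPM, a gene's reads scaled to the size of the library with TMM factors, and changes as log2 differences with their standard error (SE) from the edgeR quasi-likelihood fit. Arid1a was at 291.5 and 399.9 CPM in siCtrl and at 263.2 to 308.4 CPM in siCtrl_EGF, against 126.8 to 156.8 CPM in siArid1a and 122.5 to 151.6 CPM in siArid1a_EGF. Averaged over vehicle and EGF, it was lower with its siRNAs by 2.23-fold (log2 -1.16 ± 0.09 SE, edgeR adjusted p = 5.86e-07). Dusp6 was at 15.4 to 19.4 CPM in the 5 libraries without EGF and at 82.2 to 150 CPM in the 6 with EGF. Summed acinar markers, mostly the chymotrypsinogen gene Ctrb1, took 15900 to 17900 CPM in siCtrl, 14300 to 15600 in siCtrl_EGF, 15700 to 18600 in siArid1a and 15100 to 16900 in siArid1a_EGF, with the amylase gene Amy2a5 at 0 in all libraries. Of 14 tested acinar markers, 6 fell with EGF and control siRNA, as the 8 genes did, and 3 rose (median log2 change -0.40). Over all genes, 18.8% were called lower in that comparison and 16.8% higher. The part of these markers in the members' values was not tested.

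Promoter sequences of 4 of the 8 genes are shown because they differ in base composition while their transcripts share a low level with EGF. Each window covers 250 bases before and 50 bases after the start site, is read 5′ to 3′ on the gene's strand, and comes from RefSeq on build GRCm38.p6. Synpo2 lies on the minus strand at chr3:123236100-123236399, Fam13a on the minus strand at chr6:59024453-59024752, Olfml2b on the plus strand at chr1:170644282-170644581, and Cdc42ep3 on the minus strand at chr17:79355042-79355341. Capitals mark matches to the motifs named in the next paragraph, on either strand.
Synpo2: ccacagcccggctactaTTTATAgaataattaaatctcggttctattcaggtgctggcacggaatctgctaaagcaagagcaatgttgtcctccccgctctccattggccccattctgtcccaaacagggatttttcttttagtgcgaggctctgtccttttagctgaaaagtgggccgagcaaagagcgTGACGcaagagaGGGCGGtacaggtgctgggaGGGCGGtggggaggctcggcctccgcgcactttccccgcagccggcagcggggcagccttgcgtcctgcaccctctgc
Fam13a: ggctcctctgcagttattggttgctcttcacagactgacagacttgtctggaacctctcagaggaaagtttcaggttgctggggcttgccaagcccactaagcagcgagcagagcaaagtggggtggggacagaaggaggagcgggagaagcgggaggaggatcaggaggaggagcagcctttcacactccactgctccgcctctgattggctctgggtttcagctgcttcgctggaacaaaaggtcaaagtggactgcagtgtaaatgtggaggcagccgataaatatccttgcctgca
Olfml2b: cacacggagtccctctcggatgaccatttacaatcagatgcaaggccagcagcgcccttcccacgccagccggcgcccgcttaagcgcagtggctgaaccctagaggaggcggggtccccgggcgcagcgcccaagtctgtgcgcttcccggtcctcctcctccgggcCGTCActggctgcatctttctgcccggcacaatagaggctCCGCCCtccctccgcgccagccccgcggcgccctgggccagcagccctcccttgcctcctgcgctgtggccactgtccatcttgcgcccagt
Cdc42ep3: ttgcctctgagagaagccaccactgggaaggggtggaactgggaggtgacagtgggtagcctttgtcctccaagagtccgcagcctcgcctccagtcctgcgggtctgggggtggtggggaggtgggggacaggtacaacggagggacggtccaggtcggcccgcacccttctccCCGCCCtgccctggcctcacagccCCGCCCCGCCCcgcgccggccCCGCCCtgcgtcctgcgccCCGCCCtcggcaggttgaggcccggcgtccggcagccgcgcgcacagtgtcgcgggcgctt

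The set of RefSeq promoters used here held 6 of the 8 genes, and Nptxr and Omp were missing from that set. The letters of 9 motifs were searched on both strands. GTAAACA stood for the site of FOXO factors and TGACTCA for that of AP-1. The core of the cyclic AMP response element, called CRE core here, was searched as TGACG. For ETS factors the letters were CGGAAG, and for the TEAD factors of the Hippo pathway they were GGAATG. The E-box was searched as CACGTG, the core promoter TATA box as TATAAA, and the GC box as GGGCGG. The CArG box of SRF was searched as CC, then 6 bases that are each A or T, then GG. GC boxes were found 5 times in the Cdc42ep3 window, 2 times in that of Synpo2 and once each in those of Olfml2b and Cyp4v3, thus in 4 of 6 windows, against 35.7% of all 32851 windows of this length. At Cdc42ep3, 2 of these matches overlap at their ends. The CRE core occurred in the windows of Synpo2 and Olfml2b (20.8% of all windows), and the E-box in that of Cyp4v3 (7.15%). The letters TATAAA were found in the window of Synpo2 (13.6%). They lie there on the opposite strand, from base -233 relative to the start site, and are a match of letters only. The windows of Fam13a and Apol7a held none of the 9 motifs. FOXO, AP-1, ETS, TEAD and CArG letters were in none of the 6 windows, and they are found in 3.65%, 5.2%, 16.9%, 14.7% and 1.63% of all windows. Base composition was also mixed. Cdc42ep3 had 73% G and C with 27 CpG, Olfml2b 69% with 25 CpG, and Synpo2 57.3% with 17 CpG, while Fam13a had 55% with 6 CpG and Apol7a 48.7% with 7 CpG. The median of all windows was 52.7% and 7 CpG.

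With control siRNA, all 8 genes were lower in the 3 EGF libraries than in the 2 vehicle libraries, with no overlap between the groups, which is what they were chosen for. Over all genes, 18.8% were called lower in this comparison (edgeR, adjusted p under 0.05), and 2.54% were called lower by more than 2-fold. Nothing is read from the members' count here. With Arid1a siRNAs, 7 of the 8 were again lower with EGF without overlap, and Nptxr was not. In that comparison 10.4% of all genes were called lower, and 0.772% lower by more than 2-fold. These shares are of calls. How many of all genes lie without overlap was not counted for either siRNA alone, so nothing is read from this count either. The rule does not say whether it also used the libraries with Arid1a siRNAs, so no test is given for them either. Median log2 change of the 8 genes was -1.96 with control siRNA and -1.19 with Arid1a siRNAs, where the medians over all genes were -0.03 and -0.01. In 7 of the 8, every one of the 6 EGF libraries lay below every one of the 5 vehicle libraries, a pattern that 5.67% of all genes show. The choice of the genes favours this pattern, so nothing is read from that comparison. In a bulk sample, fewer cells that express a gene and less of its RNA per cell cannot be told apart.

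**Figure D1:**
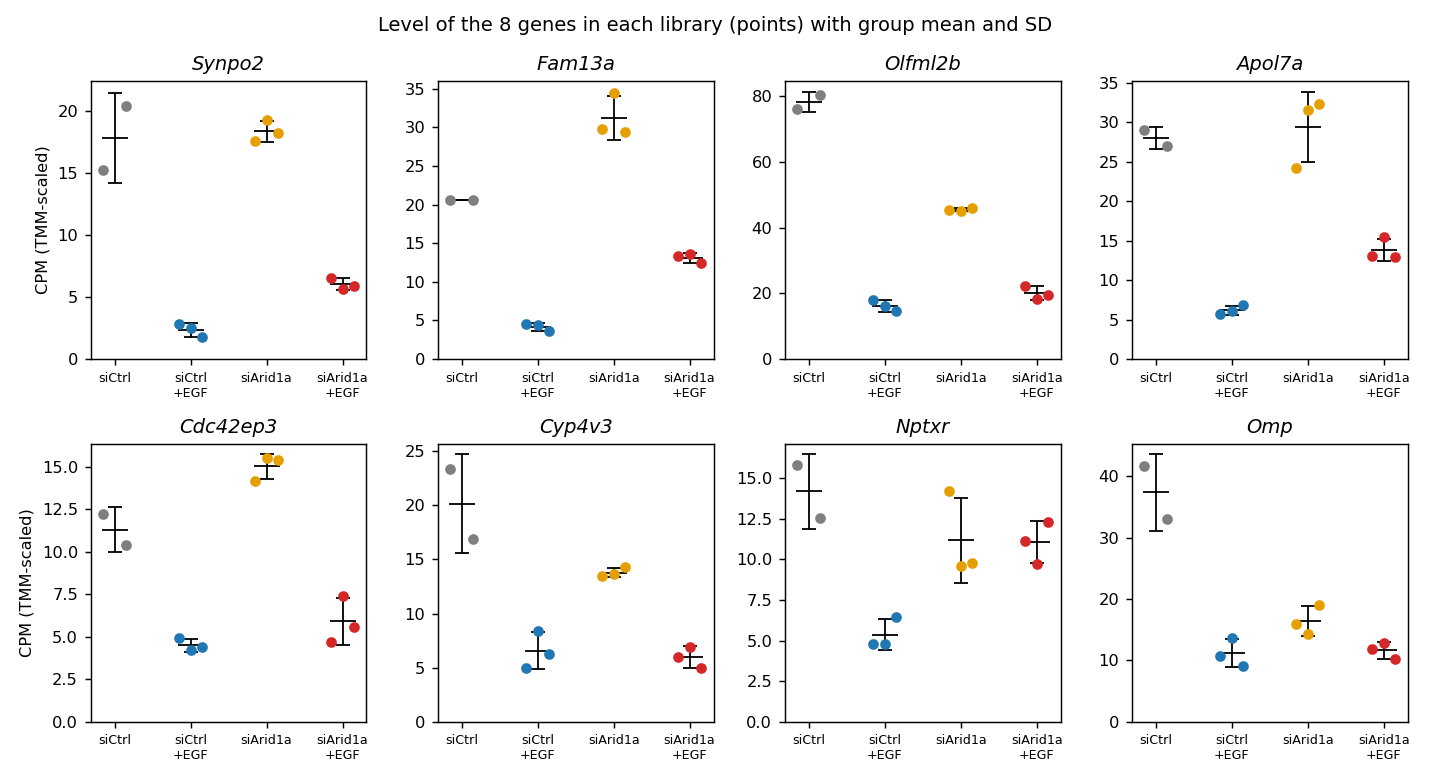
Level of each of the 8 genes in each of the 11 libraries (points; vertical axis in TMM-scaled CPM from 0; black marks, group mean and SD, n = 2 for siCtrl and 3 for the others). Synpo2, Fam13a, Olfml2b and Apol7a sat higher in siArid1a_EGF than in siCtrl_EGF, whereas Nptxr in siArid1a_EGF lay at the level of siArid1a, at 9.73 to 12.3 CPM.

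Synpo2 and Cdc42ep3 encode proteins of the actin and septin cytoskeleton. Synpo2 (synaptopodin 2, or myopodin) binds actin filaments and their crosslinkers and is best known from the Z-disc of muscle. It was at 15.3 and 20.4 CPM in siCtrl and at 2.83, 2.47 and 1.77 CPM in siCtrl_EGF. The siArid1a libraries had 17.6, 19.3 and 18.3 CPM, and the siArid1a_EGF libraries 6.55, 5.63 and 5.94 CPM. Vehicle libraries of both siRNAs thus shared a range, while the EGF libraries were low in both and did not overlap each other. The log2 change with EGF was -2.90 ± 0.17 (SE) with control siRNA and -1.61 ± 0.14 with Arid1a siRNAs. This left 13.2% of the vehicle level in the first case and 32.8% in the second. Of the 8 genes it had the largest fall with control siRNA, the 5th largest of all 13343 genes tested, and with Arid1a siRNAs it ranked 19th.

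Cdc42ep3 encodes a Borg protein that binds active CDC42, a small GTPase of cell shape, and septin filaments. It was at 12.2 and 10.4 CPM in siCtrl and at 4.93, 4.20 and 4.38 CPM in siCtrl_EGF. With Arid1a siRNAs it was at 14.2, 15.5 and 15.4 CPM without EGF and at 4.72, 7.39 and 5.60 CPM with EGF. The siArid1a libraries were the highest, and the EGF libraries of both siRNAs overlapped. Its changes with EGF were alike in size, log2 -1.34 ± 0.16 with control siRNA and -1.35 ± 0.14 with Arid1a siRNAs, and left 39.8% and 39.3% of the vehicle level. By size of fall it ranked 165th with control siRNA and 36th with Arid1a siRNAs.

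Fam13a is known from human genetic studies of lung function and of body fat distribution. Its siCtrl libraries were at 20.58 and 20.56 CPM, and siCtrl_EGF at 4.49, 4.38 and 3.61 CPM. The siArid1a libraries were at 29.8, 34.5 and 29.4 CPM, and siArid1a_EGF at 13.3, 13.6 and 12.4 CPM. All 4 groups were apart, and with Arid1a siRNAs the gene was higher both without and with EGF. The fall with EGF was -2.30 ± 0.12 on the log2 scale with control siRNA and -1.26 ± 0.10 with Arid1a siRNAs, leaving 20.2% and 42.0% of the vehicle level.

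Olfml2b encodes a secreted glycoprotein with an olfactomedin domain and was the most abundant of the 8 in CPM without EGF. It was at 76.1 and 80.4 CPM in siCtrl, at 18.1, 16.0 and 14.5 CPM in siCtrl_EGF, at 45.4, 45.2 and 46.0 CPM in siArid1a, and at 22.3, 18.4 and 19.6 CPM in siArid1a_EGF. The 4 groups did not overlap, and Arid1a siRNAs went with a lower level without EGF and a slightly higher one with it. Its log2 change with EGF was -2.27 ± 0.09 with control siRNA and -1.18 ± 0.09 with Arid1a siRNAs, which left 20.8% and 44.1% of the vehicle level. The mean lost with EGF was 62.0 CPM with control siRNA and 25.5 CPM with Arid1a siRNAs.

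Apol7a belongs to the apolipoprotein L family, a cluster of closely related genes whose proteins act on membranes. Reads shared with its near copies could be split by the counting, so its level is uncertain to that extent. The siCtrl libraries were at 29.0 and 27.0 CPM, and siCtrl_EGF at 5.65, 6.05 and 6.84 CPM. With Arid1a siRNAs it was at 24.3, 31.5 and 32.4 CPM without EGF and at 13.0, 15.5 and 13.0 CPM with EGF. As for Synpo2, vehicle libraries of both siRNAs overlapped and EGF libraries did not. The log2 change with EGF was -2.18 ± 0.14 with control siRNA and -1.09 ± 0.12 with Arid1a siRNAs, leaving 22.1% and 47.1%.

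Cyp4v3 is the mouse counterpart of human CYP4V2, a fatty acid hydroxylase of the endoplasmic reticulum. Levels were 23.4 and 16.9 CPM in siCtrl and 5.00, 8.39 and 6.30 CPM in siCtrl_EGF. They were 13.4, 13.6 and 14.3 CPM in siArid1a and 5.99, 6.95 and 4.94 CPM in siArid1a_EGF. The EGF libraries of the 2 siRNAs overlapped, and both siCtrl libraries lay above all siArid1a libraries. Its log2 change with EGF was -1.61 ± 0.18 with control siRNA and -1.20 ± 0.18 with Arid1a siRNAs, and 32.6% and 43.2% of the vehicle level were left.

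Nptxr and Omp are named after neurons. Nptxr, the neuronal pentraxin receptor, is a membrane protein that gathers pentraxins and glutamate receptors at synapses. It was at 15.8 and 12.5 CPM in siCtrl and at 4.78, 4.81 and 6.46 CPM in siCtrl_EGF. With Arid1a siRNAs it was at 14.2, 9.58 and 9.74 CPM without EGF and at 11.1, 9.73 and 12.3 CPM with EGF, so that those groups overlapped fully and only siCtrl_EGF was low. The log2 change with EGF was -1.42 ± 0.19 with control siRNA and -0.003 ± 0.17 with Arid1a siRNAs. By size of fall Nptxr ranked 130th with control siRNA and 6806th of 13343 with Arid1a siRNAs.

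Omp encodes olfactory marker protein, a cytoplasmic protein of mature olfactory sensory neurons. Its siCtrl libraries were at 41.7 and 33.0 CPM, and the 3 siCtrl_EGF libraries at 10.7, 13.7 and 9.15 CPM. The siArid1a libraries had 16.0, 14.3 and 19.0 CPM and the siArid1a_EGF libraries 11.8, 12.9 and 10.2 CPM. Only siCtrl was high. The siArid1a libraries lay between, above every EGF library by a small margin. Its log2 change with EGF was -1.74 ± 0.16 with control siRNA and -0.48 ± 0.16 with Arid1a siRNAs, so that 29.9% and 71.0% of the vehicle level were left.

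The share of the log2 fall with EGF that remained with Arid1a siRNAs differed among the 8 genes. It was 55.5 ± 5.89% (SE) for Synpo2, 54.6 ± 5.09% for Fam13a, 52.0 ± 4.48% for Olfml2b and 49.9 ± 6.27% for Apol7a, 4 values within each other's error. It was 101 ± 16.3% for Cdc42ep3 and 74.5 ± 14.1% for Cyp4v3, and lower for Omp at 27.7 ± 9.5% and for Nptxr at 0.207 ± 11.8%. The same share was taken over all 339 genes called lower by more than 2-fold with control siRNA, a set added after seeing the data and chosen on the fall that forms the denominator, which by itself lowers the share. Its median was 53.6% with quartiles of 38.4% and 68.4%. By point estimate alone, 328 of the 339 had a smaller fall with Arid1a siRNAs, and 214 were still called lower there. Of these 339 genes, 181, 176, 161 and 152 had a smaller share than Synpo2, Fam13a, Olfml2b and Apol7a. Cdc42ep3 stood above 328 and Cyp4v3 above 290, whereas Omp stood above 50 and Nptxr above 16. The shares of Synpo2, Fam13a, Olfml2b and Apol7a were therefore in the middle of that set.

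**Figure D2:**
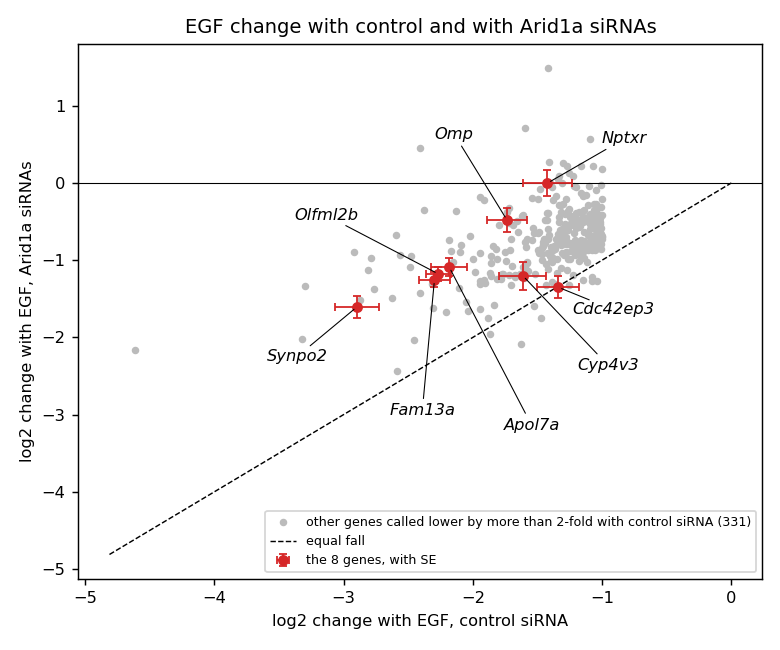
Log2 change with EGF with control siRNA (horizontal axis) and with Arid1a siRNAs (vertical axis) for the 8 genes (red, bars are SE) and the other 331 genes called lower by more than 2-fold with control siRNA (grey). The dashed line marks equal falls: Cdc42ep3 lies on it, Nptxr lies at 0 on the vertical axis, and Synpo2 is farthest to the left of the 8.

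The difference between the EGF changes, fitted for every gene as an interaction, gives the same contrast with an error. It is built from the libraries on which the genes were picked, and a gene chosen for a large fall with control siRNA tends to a smaller one elsewhere, so its adjusted p is a description. The difference was 1.29 ± 0.23 (log2, SE) for Synpo2 (edgeR adjusted p = 0.0143), 1.04 ± 0.16 for Fam13a (0.00623), 1.09 ± 0.13 for Olfml2b (0.00129) and 1.09 ± 0.18 for Apol7a (0.0105). For Nptxr it was 1.42 ± 0.25 (0.0141) and for Omp 1.25 ± 0.23 (0.0145). Cdc42ep3 had -0.01 ± 0.23 (0.996) and Cyp4v3 0.41 ± 0.26 (0.701). Thus 6 of the 8 passed the threshold where 0.944% of all genes did, a comparison from which nothing is read, as the choice of genes favours it. Of the 339 genes called lower by more than 2-fold with control siRNA, which include the 8, 37 passed it. The calls of Synpo2, Nptxr and Omp each depended on single libraries. For Synpo2 the adjusted p was 0.0558 without siCtrl_EGF replicate 3 and 0.056 without siArid1a_EGF replicate 1, and 0.0599 with a replicate block. For Nptxr it was 0.0752 without siCtrl replicate 1 and 0.0586 without siCtrl_EGF replicate 1. For Omp it was 0.0671 without siCtrl replicate 1, 0.0586 without siCtrl_EGF replicate 1, 0.0503 without siArid1a replicate 1, 0.053 without siArid1a_EGF replicate 1 and 0.0872 with a replicate block.

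The change with Arid1a siRNAs averaged over vehicle and EGF weighs both conditions alike and is the comparison least shifted by how the genes were chosen. All 8 genes were called, 5 higher and 3 lower, where 56.6% of all genes were called either way. Fam13a rose most, by log2 1.13 ± 0.08 or 2.18-fold (edgeR adjusted p = 2.67e-08). Synpo2 rose by 0.70 ± 0.12 (0.000122), Apol7a by 0.62 ± 0.09 (5.02e-05), Cdc42ep3 by 0.40 ± 0.11 (0.00651) and Nptxr by 0.34 ± 0.13 (0.033). Omp changed by -0.57 ± 0.11 (0.000562), Cyp4v3 by -0.35 ± 0.13 (0.0326) and Olfml2b by -0.24 ± 0.07 (0.0066). For some genes the average joins changes of opposite sign without and with EGF. These were Nptxr (-0.37 and 1.05), Olfml2b (-0.78 and 0.31) and Omp (-1.20 and 0.05). Median change of the 8 was 0.37 and that of all genes -0.004. The Nptxr and Cyp4v3 calls were each lost when any of 6 libraries was left out. For Nptxr these were siCtrl replicate 2, siCtrl_EGF replicates 1 and 2, siArid1a replicate 1 and siArid1a_EGF replicates 1 and 3, with adjusted p from 0.0569 to 0.106. For Cyp4v3 they were siCtrl replicate 1, siCtrl_EGF replicate 2, siArid1a replicates 1 and 2 and siArid1a_EGF replicates 1 and 3, with adjusted p from 0.0583 to 0.185, and its change was -0.21 without siCtrl replicate 1. The Cyp4v3 call was also lost with upper-quartile factors (0.0683) and with a replicate block (0.0741).

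Without EGF, 2 of the 8 genes were called higher with Arid1a siRNAs, 3 lower and 3 neither, where 38.9% of all genes were called and 20.1% called lower. Omp fell by 2.30-fold (log2 -1.20 ± 0.16, edgeR adjusted p = 3.61e-05), Olfml2b by 1.72-fold (-0.78 ± 0.09, 1.11e-05) and Cyp4v3 by 1.47-fold (-0.56 ± 0.17, 0.0189). For these 3 the siCtrl libraries, which also entered the choice of the genes and where genes chosen for a fall tend to be high, lay above all siArid1a libraries. Fam13a rose by 1.52-fold (0.61 ± 0.10, 0.000319) and Cdc42ep3 by 1.32-fold (0.41 ± 0.14, 0.0383). Synpo2 (0.06 ± 0.14, 0.77), Apol7a (0.07 ± 0.12, 0.674) and Nptxr (-0.37 ± 0.18, 0.111) were not called. The Cyp4v3 call was lost without siCtrl replicate 1 (log2 -0.29, adjusted p = 0.288), siArid1a replicate 1 (0.0574) or siArid1a replicate 2 (0.0572), and with a replicate block (0.065). That of Cdc42ep3 was lost without siCtrl replicate 2 (0.194), siArid1a replicate 2 (0.0866) or siArid1a replicate 3 (0.0734), with DESeq2 (0.0543) and with a replicate block (0.0833). Nptxr was called lower without siArid1a replicate 1, at -0.55 (0.0222).

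With EGF, 5 of the 8 were called higher with Arid1a siRNAs and none lower, where 46.9% of all genes were called and 23.7% called higher. This comparison shares the siCtrl_EGF libraries, in which genes chosen for a fall tend to be low. Fam13a rose by 3.14-fold (log2 1.65 ± 0.12, edgeR adjusted p = 8.95e-08), Synpo2 by 2.55-fold (1.35 ± 0.19, 4e-05), Apol7a by 2.24-fold (1.17 ± 0.14, 9.93e-06) and Nptxr by 2.07-fold (1.05 ± 0.18, 0.000274). Olfml2b rose by 1.24-fold (0.31 ± 0.10, 0.0159), the opposite direction to its change without EGF, and lost the call without siCtrl_EGF replicate 3 (0.0751) or siArid1a_EGF replicate 1 (0.0964). Omp (0.05 ± 0.16, 0.815) and Cyp4v3 (-0.15 ± 0.20, 0.572) were not called. Cdc42ep3 missed the threshold (0.39 ± 0.17, 0.0666) and passed it at 0.40 with adjusted p = 0.0157 when the 2 EGF groups alone were fitted with the replicate number as a block. It also passed without siArid1a_EGF replicate 1 (0.0192) and with upper-quartile factors (0.0439).

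**Figure D3:**
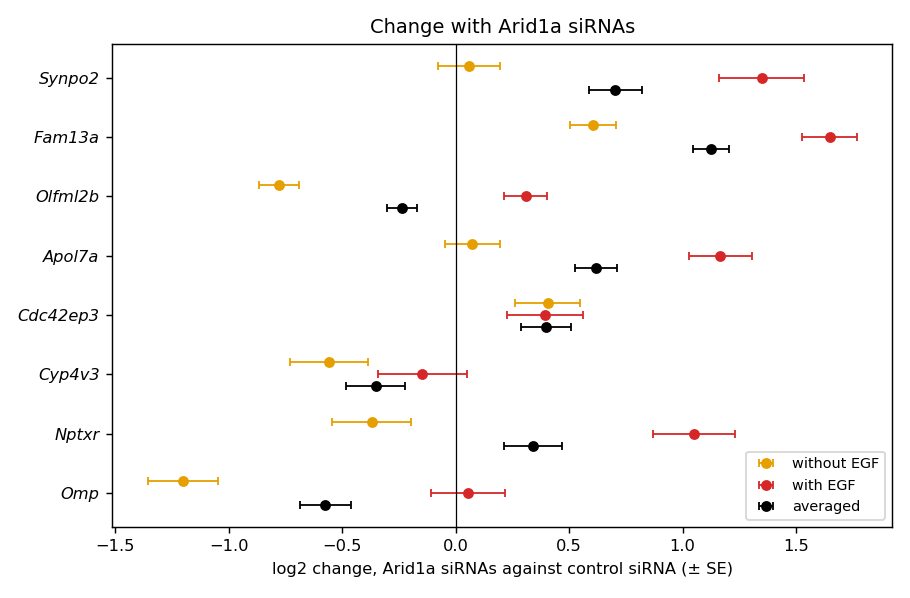
Log2 change with Arid1a siRNAs against control siRNA for each of the 8 genes, without EGF (orange), with EGF (red) and averaged (black), with bars for SE. Olfml2b and Omp are left of 0 without EGF, and Fam13a lies right of 0 in all 3 comparisons, up to 1.65 with EGF.

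FPKM values, which divide by transcript length and allow levels of different genes to be set side by side, could be used for 9 of the libraries. In siArid1a, mean FPKM was 14.2 ± 0.196 (SD, n = 3) for Olfml2b, 12.3 ± 1.96 for Apol7a, 7.79 ± 1.16 for Omp, 7.69 ± 0.335 for Cdc42ep3, 6.92 ± 0.593 for Fam13a, 4.56 ± 0.174 for Cyp4v3 and 2.40 ± 0.105 for Synpo2. In this order the gap between Olfml2b and Apol7a was about the SD of Apol7a, and Omp, Cdc42ep3 and Fam13a did not differ beyond their spread. In siCtrl_EGF Synpo2 was down to 0.308 ± 0.0709 FPKM and Fam13a to 0.911 ± 0.113 FPKM, the lowest of the 8. Between the 2 EGF groups the log2 change on the scale of FPKM plus 0.1 was 1.13 for Synpo2 and 1.57 for Fam13a. Nptxr had 20.8 ± 4.13 FPKM in siArid1a, 19.6 ± 0.6 in siArid1a_EGF and 9.67 ± 1.19 in siCtrl_EGF.

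The level of Nptxr depended on the kind of file. Its mean CPM was 0.551 times its mean FPKM over the 9 libraries, against 1.96 to 7.66 times for the other 7 genes. On the annotation used here (GENCODE vM21), Nptxr overlaps Npcd on the same strand. Npcd is listed with 0 reads in every count library, yet with 3.69 to 15.2 FPKM in the 9 usable columns. Its FPKM was 5.42 ± 1.54 (SD, n = 3) in siCtrl_EGF, 11.99 ± 3.82 in siArid1a and 5.75 ± 1.24 in siArid1a_EGF. How reads were assigned to this pair is not given in the sources used here, so the level of Nptxr and its changes with EGF are uncertain. In both kinds of file siCtrl_EGF was the lowest of the 3 groups for Nptxr. Cbx6, a Polycomb gene beside Nptxr, was log2 -0.26 ± 0.06 with EGF and control siRNA (edgeR adjusted p = 0.00477), and -0.15 ± 0.06 with Arid1a siRNAs (0.0683).

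Omp lies inside Capn5, a calpain protease gene, on the same strand of that annotation. Capn5 was at 56.3 and 52.1 CPM in siCtrl, 34.0 to 38.3 CPM in siCtrl_EGF, 54.4 to 59.8 CPM in siArid1a and 42.9 to 47.6 CPM in siArid1a_EGF. It fell with EGF by 1.53-fold with control siRNA (log2 -0.61 ± 0.08, edgeR adjusted p = 3.97e-05) and by 1.27-fold with Arid1a siRNAs (-0.34 ± 0.07, 0.00349). Reads of this pair could be assigned to either gene, and the extent was not tested. The ratio of Omp to Capn5 was 0.687 ± 0.0767 (SD, n = 2) in siCtrl, 0.313 ± 0.0441 (n = 3) in siCtrl_EGF, 0.285 ± 0.0571 in siArid1a and 0.254 ± 0.0163 in siArid1a_EGF. Only siCtrl stood apart. Without EGF, Capn5 did not change with Arid1a siRNAs past the threshold (0.09 ± 0.08, 0.38), where Omp fell by 2.30-fold.

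**Figure D4:**
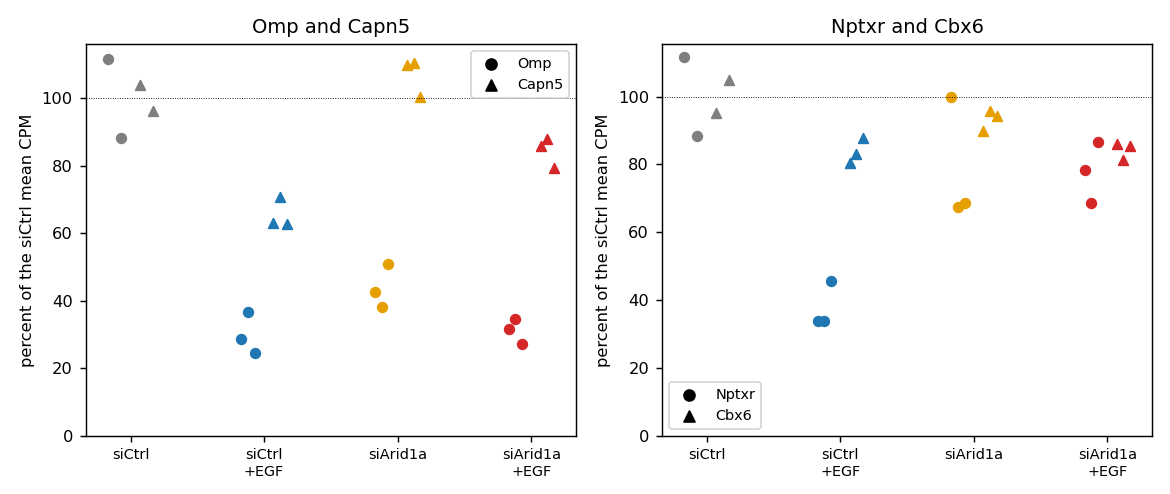
Levels of Omp (circles) and Capn5 (triangles), left, and of Nptxr (circles) and Cbx6 (triangles), right, in each library as percent of the siCtrl mean CPM; the dotted line is 100%. Omp is low in all 3 groups other than siCtrl, while Nptxr is lowest in siCtrl_EGF and Cbx6 varies little.

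Further genes next to the members are listed for EGF with control siRNA, where 16.8% of all genes were called higher and 18.8% lower. Sec24d beside Synpo2, Tigd2 beside Fam13a, Nos1ap and Atf6 on either side of Olfml2b, Rbfox2 beside Apol7a, Qpct beside Cdc42ep3 and Fam149a beside Cyp4v3 changed by between log2 -0.371 and 0.114 with adjusted p of 0.0719 or more. Herc3 beside Fam13a fell (-0.727 ± 0.11, edgeR adjusted p = 0.000135), as did Apol9a beside Apol7a (-1.3 ± 0.332, 0.00698) and Gm16576 beside Nptxr (-0.61 ± 0.155, 0.00665). Cyp1b1 beside Cdc42ep3 rose (1.16 ± 0.422, 0.0449), as did Myo7a beside Omp (0.712 ± 0.175, 0.00543). Myoz2, the muscle gene on the other side of Synpo2, had 0 reads.

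Relatives of the 8 genes moved in both directions with EGF. With control siRNA, 16.8% of all genes were called higher and 18.8% lower. Beside Olfml2b, 3 olfactomedin genes were tested, and with control siRNA EGF raised Olfml2a (log2 0.63 ± 0.16, edgeR adjusted p = 0.00613) and Olfm1 (0.72 ± 0.14, 0.0011). Nptx2, a secreted pentraxin that binds the receptor encoded by Nptxr, rose (0.99 ± 0.08, 2.5e-07). Of the other 2 tested pentraxins, Crp, which encodes C-reactive protein, fell (-1.08 ± 0.24, 0.00314), and Nptx1 (-0.89 ± 0.40, 0.0974) missed the threshold. Of the 4 other CDC42 effector genes, Cdc42ep4 fell (-0.60 ± 0.06, 6.13e-06), and the other 3, among them Cdc42ep1 (0.18 ± 0.11, 0.246), were not called. Of 4 other tested apolipoprotein L genes 1 fell, Apol9a, and Apol9b had -0.75 ± 0.45 (0.213). With Arid1a siRNAs averaged over vehicle and EGF, 3 of these 4 rose, as did Apol7a, with Apol9a at 0.96 ± 0.21 (0.00114) and Apol9b at 1.93 ± 0.24 (8.25e-06). In that comparison 3751 of all 13343 genes were called higher. Of 5 other cytochrome P450 family 4 genes, 1 rose and 2 fell with EGF and control siRNA. The more abundant Cyp4f16 (-0.07 ± 0.10, 0.624) and Cyp4f13 (-0.33 ± 0.15, 0.0987) were not called. Synpo (-0.94 ± 0.36, 0.0555), Fam13b (0.26 ± 0.12, 0.111) and Fam13c (-0.49 ± 0.24, 0.136) were not called.

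Pathway genes were counted in the same fit, from lists written with earlier results known. Of 15 tested ERK feedback genes, 14 rose with EGF and control siRNA and none fell, where 16.8% of all genes were called higher. Their median log2 change was 1.64, against -0.03 over all genes. The most abundant feedback genes were Phlda1 (1.37 ± 0.06, edgeR adjusted p = 1.3e-09) and Spry2 (2.26 ± 0.06, 1.54e-11). With Arid1a siRNAs 13 rose, where 1734 of all 13343 genes were called higher. An interaction was called for 7 of the 15, all towards a smaller rise, and for 0.944% of all genes. Of 30 FOXO target genes, 19 fell, 1 rose and 10 were not called with control siRNA, and their median was -0.55; 18.8% of all genes were called lower there. With Arid1a siRNAs 12 fell and the median was -0.29, where 10.4% of all genes were called lower. The most abundant, Sod2 (-0.01 ± 0.06, 0.902), was not called, and Cdkn1b, a cell cycle inhibitor gene, fell (-0.26 ± 0.05, 0.000976). In 3 of the 30 the interaction was called, each towards a smaller fall, to be read against the same 0.944% of all genes.

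Other genes of the actin cytoskeleton were listed beside Synpo2, in a comparison where 16.8% of all genes were called higher and 18.8% lower. Of 35 tested actin and SRF target genes, 9 rose and 4 fell with EGF and control siRNA. The 2 most abundant were among those that rose, Actb at 0.31 ± 0.06 (edgeR adjusted p = 0.000659) and Flna, a filamin gene, at 0.46 ± 0.11 (0.0055). The 4 that fell were Filip1l (-0.80), Fhl1 (-1.03), Ldb3 (-0.85) and Myl9 (-1.06). Of 9 tested genes of olfactory signalling, 2 rose and 4 fell, to be read against the same shares, with Gnb1 at 0.15 ± 0.06 (0.0473) and Reep1 at -0.35 ± 0.10 (0.00968).

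Summed markers of other cell types were read in every library. Counts of markers called with EGF and control siRNA stand beside 16.8% of all genes called higher and 18.8% called lower. Smooth muscle markers, set beside Synpo2, summed to 20.1 to 21.0 CPM in siCtrl, 13.0 to 15.8 CPM in siCtrl_EGF, 37.1 to 48.0 CPM in siArid1a and 23.0 to 27.4 CPM in siArid1a_EGF. The sum is mostly Myh11. All 7 were detected, 4 of 7 had enough reads to be tested, and 1 of those 4 fell with EGF and control siRNA. This was Myh11 (log2 -0.68 ± 0.15, edgeR adjusted p = 0.00238). Acta2 (-0.31 ± 0.32, 0.501), Des (0.84 ± 0.41, 0.138) and Tagln (0.008 ± 0.21, 0.997) were not called. The part of these markers in the Synpo2 values was not tested. Olfactory neuron markers, set beside Omp, summed to 14.8 to 19.8 CPM in siCtrl and 18.3 to 25.7 CPM elsewhere, mostly Adcy3. None of the 3 tested was called with EGF and control siRNA (edgeR adjusted p of 0.0973 for Adcy3, 0.537 for Gnal and 0.931 for Gng13), and Cnga2, the channel gene of these neurons, was at 0 in all libraries. Neuron and neuroendocrine markers, set beside Nptxr, summed to 836 to 890 CPM in siCtrl and 1230 to 1290 CPM in siCtrl_EGF. They summed to 792 to 943 CPM in siArid1a and 958 to 992 CPM in siArid1a_EGF. The sum is mostly Chga, the chromogranin A gene, which rose with EGF and control siRNA (log2 0.64 ± 0.07, edgeR adjusted p = 1.22e-05). Of the 8 tested, 2 rose, 2 fell and 4 were not called, and those that fell, as Nptxr did, were Tubb3 (-0.53 ± 0.11, 0.00234) and Snap25 (-0.26 ± 0.09, 0.0285). Their part in the Nptxr values was not tested. Fibroblast and stellate markers ranged from 559 to 836 CPM with Lum at 0, and endothelial markers from 38.6 to 55.3 CPM with Cdh5 at 0. Immune markers reached at most 9.3 CPM with Cd3e at 0, and islet markers at most 2.38 CPM with Ins1, Ins2 and Sst at 0.

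Across the 11 libraries, Pearson's r of log2 CPM between 2 members ranged from 0.539 to 0.969 over 28 pairs, with a median of 0.806, all points sharing the 4 groups on which the choice rests. After the group means were removed it ranged from -0.684 to 0.822 with a median of -0.003. The genes most like each member, among 9462 genes whose log2 CPM averaged 3 or more, were taken by the same r over the 11 libraries. They were G0s2 (0.99), Pde4d (0.988) and Pcdh15 (0.988) for Synpo2, Pak7 (0.994), Stom (0.992) and Rcan2 (0.991) for Fam13a, and Sstr2 (0.989), Cacna2d2 (0.986) and Lect1 (0.981) for Olfml2b. For Apol7a they were Kcnh2 (0.99), Tle4 (0.986) and Bckdha (0.984), for Cdc42ep3 Dram1 (0.979), Jam3 (0.976) and Aldh6a1 (0.974), and for Cyp4v3 Fam189a2 (0.985), Mapk13 (0.979) and Tmub2 (0.971). For Omp they were Sppl3 (0.974), Cdkn1c (0.97) and Actr1a (0.969). Nptxr had the least close ones, Gas1 (0.933), Gclm (0.932) and Fignl2 (0.93).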

How the data were processed

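RNA of 11 libraries was sequenced from TruSeq RNA v2 preparations, which keep no record of strand. The submitters' processing notes name TopHat2 2.1.1, HTSeq 0.9.1, Cuffnorm 2.2.1.2 and Cuffdiff 2.2.1.5, with build mm9. The annotation and counting settings are not given in the sources used here. The deposited tables hold raw read counts per gene symbol, and a deposited table of FPKM made by the authors served as an alternative. In it, 3 columns of controls matched no sample and stayed unused.

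The counts went into edgeR 4.0.16 under R 4.3.3 (filterByExpr with a minimum count of 10 and total of 15, TMM, 4 group means, robust quasi-likelihood fit, 7 residual degrees of freedom, two-sided tests). Benjamini-Hochberg adjustment covered all 13343 tested genes, and calls are at 0.05. Alternatives were RLE and upper-quartile factors, no filter, DESeq2 1.42.0, limma-voom (limma 3.58.1), log2(FPKM + 0.1), a replicate block and leaving out each library. The members and lists were chosen with earlier results of these data known. The text names the members, the 2 genes of each list with the highest mean CPM (1 list is not reported here), a few further family and marker genes chosen after their values were seen, neighbouring genes, Arid1a and Dusp6, and the 3 genes most like each member. Omp, Nptxr and Capn5 overlaps come from GENCODE vM21, and promoters from RefSeq.

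Replicate numbers come from the sample titles. Same-numbered libraries of the 2 EGF groups deviated together (r = 0.422, 0.613 and 0.316). The main fit holds no block for this, and the block is given as an alternative. A block fit of those 2 groups alone was added after seeing the data. Same-numbered libraries of other pairs of groups ranged from r = -0.707 to 0.627. Between differently numbered libraries r ranged from -0.627 to 0.707, so shared deviation was not bound to the number. Its source was not tested. Replicates differed beyond sampling noise (chi-square per degree of freedom of 1.57 to 10.9).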

Additional observations from a re-analysis of the deposited data

Results flagged for a closer look

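The interaction term in edgeR, the difference between the EGF changes with Arid1a and with control siRNAs, was called for 6 of the 8 genes. Of all genes, 0.944% were called. The 8 were chosen on the libraries that form this term, so nothing is read from the count. As given above, the calls of Synpo2, Nptxr and Omp were each lost when single libraries were left out. Those of Synpo2 and Omp were also lost with a replicate block. The log2 difference was 1.29 for Synpo2, with a smaller fall under Arid1a siRNAs. Fam13a differed by 1.04 in the same direction. Olfml2b differed by 1.09, and its lower level in siArid1a than in siCtrl is part of that value. Apol7a differed by 1.09, with vehicle levels alike for both siRNAs. Nptxr differed by 1.42, with no fall with EGF under Arid1a siRNAs in its counted reads. The overlapping Npcd, with 0 counted reads, had 11.99 FPKM in siArid1a and 5.75 in siArid1a_EGF. The part of read assignment in the Nptxr value was not tested. Omp differed by 1.25, and its lower level in siArid1a than in siCtrl is part of that value.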

How the results depend on the processing

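Of 872 values of the members recomputed under the alternatives, 832 stayed on their side of the threshold or, where no test is given, within the spread between replicates. In 35 the call was lost, 4 gained it and 1 moved by more than that spread. No called value changed sign. Among values not called, 13 changed sign: 6 of the Cdc42ep3 interaction, 3 of the change of Nptxr with EGF and Arid1a siRNAs, 2 of Omp and 1 of Cyp4v3 with Arid1a siRNAs and EGF, and 1 of Synpo2 with Arid1a siRNAs without EGF. The value that moved was the change of Synpo2 with EGF and Arid1a siRNAs on the scale of log2(FPKM + 0.1), at -1.50. Members called without EGF were 3 in place of 5 with a replicate block over all libraries, and 3 to 5 when single libraries were left out. Genes with an interaction called numbered 126, and 56 with the replicate block, where single libraries left out gave 55 to 153. With that block the interaction calls of Synpo2 (adjusted p = 0.0599) and Omp (0.0872) were lost, the averaged call of Cyp4v3 (0.0741), and without EGF those of Cyp4v3 (0.065) and Cdc42ep3 (0.0833); the pairing by number held only between the EGF groups, where the block, fitted to those groups alone, added the call of Cdc42ep3 and changed no other call among the members. DESeq2 also dropped Cdc42ep3 without EGF (0.0543). Upper-quartile factors dropped the averaged call of Cyp4v3 (0.0683), added Cdc42ep3 with EGF (0.0439), and gave 60.7% higher among genes called without EGF, against 48.3% with TMM. The share of the fall that remained ranged from 51.9 to 59.9% for Synpo2, 51.3 to 56.7% for Fam13a, 49.2 to 55.8% for Olfml2b, 46.8 to 55.4% for Apol7a, 90.1 to 116% for Cdc42ep3, 65.1 to 89% for Cyp4v3, -13.2 to 8.31% for Nptxr and 21 to 33.9% for Omp. The causes were not tested. The low counts of Synpo2 with EGF, from 23 reads, and the 2 siCtrl libraries limit precision.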
